A study of Mus musculus with 9 samples.

Results

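The Notch receptors and ligands described here are 10 genes, Notch1, Notch2, Notch3, Notch4, Dll1, Dll3, Dll4, Jag1, Jag2 and Dlk1, which 14 of 39429 non-control probes of the arrays represented. They were found by gene name and RefSeq accession, and 12 of the 14 probes entered the tests, among them the brightest probe of all 10 genes. In all, 23889 genes and unnamed transcripts were tested. RNA of the kidney cortex was hybridised to 9 single-colour arrays. The mice were 12 to 16 weeks old and were either wild type or Notch3-/-, that is, with the gene of the receptor Notch3 knocked out. The arrays held 2 wild-type healthy kidneys, 2 wild-type kidneys and 3 Notch3-/- kidneys after 5 days of unilateral ureteral obstruction (UUO), and 2 Notch3-/- healthy kidneys. In this model a ligated ureter blocks the outflow of urine, and inflammation and scarring follow in that kidney. Per the design text the comparison is the untied kidney of the other side. The labels give neither strain nor animal for any array, so arrays of a group may share an animal, and the p-values would then reflect technical spread. The study set out to compare Notch receptors, among other genes, between obstructed wild-type and Notch3-/- kidneys.

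Notch receptors are single-pass membrane proteins that are activated by ligands on a neighbouring cell. The Delta-like ligands and the Jagged ligands bind and activate them, after which proteases cut the receptor and its intracellular part moves to the nucleus, binds RBPJ and switches on genes of the Hes and Hey families. Notch3 is known from pericytes and vascular smooth muscle, Notch4 and Dll4 from endothelium, and Dlk1 is a non-canonical, Delta-like membrane protein of fat precursors and endocrine tissue, the adrenal cortex included.

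Between 65.3% and 73.2% of the 43020 non-control spots lay well above background per array, no spot was saturated, and the brightest probe of each of the 10 genes was well above background on all 9 arrays. All 7 proximal tubule markers were well above background on every array, with a summed level of 156 to 936 times the array's 75th percentile. Wild-type arrays were scanned at other times than Notch3-/- arrays, and genotype cannot be told apart from scan time. The wild-type healthy and UUO arrays shared no slide, while 1 slide held all 3 Notch3-/- UUO arrays and Notch3-/- healthy replicate 1. In Notch3-/- UUO replicates 2 and 3, Xist, which is transcribed in females, reached a log2 signal of 0.18 and 0.00 against at most -5.71 elsewhere, while the Y-linked Ddx3y was at -3.80 and -3.67. In the Notch3-/- healthy arrays Xist was at -5.71 and -6.52 and Ddx3y at 0.42 and 0.21. By these markers neither healthy array came from the animal of UUO replicate 2 or 3, and that obstruction comparison mixes sexes. UUO replicates 2 and 3 had the highest correlation of any pair of arrays, 0.9912, and whether they share an animal was not tested. They also carried transcripts of the adrenal cortex. The members' results that rest on them, and the pathway genes' changes in Notch3-/- obstruction, are therefore given with and without them. Signals below are log2 values relative to the array's 75th percentile, so that 0 is the level of that percentile, and changes are log2 fold changes ± SE. A change was called at a limma adjusted p under 0.05 over all 23889 genes and transcripts.

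Promoter stretches are shown for the 3 members that obstruction changed in wild-type kidneys, Notch2, Notch3 and Dll1. Each is the 250 bases before an annotated RefSeq start in build GRCm38.p6, read 5′ to 3′ on the gene's strand, and the Dll1 stretch belongs to the farther upstream of its 2 annotated starts. Capitals mark a match to the AP-1 motif TGANTCA.
Notch2, chr3:98013288-98013537, plus strand: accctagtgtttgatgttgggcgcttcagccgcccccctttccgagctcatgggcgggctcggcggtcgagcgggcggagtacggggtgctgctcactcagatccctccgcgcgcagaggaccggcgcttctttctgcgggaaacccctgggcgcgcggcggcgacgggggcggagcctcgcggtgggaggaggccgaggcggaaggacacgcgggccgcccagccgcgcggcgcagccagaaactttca
Notch3, chr17:32166891-32167140, minus strand: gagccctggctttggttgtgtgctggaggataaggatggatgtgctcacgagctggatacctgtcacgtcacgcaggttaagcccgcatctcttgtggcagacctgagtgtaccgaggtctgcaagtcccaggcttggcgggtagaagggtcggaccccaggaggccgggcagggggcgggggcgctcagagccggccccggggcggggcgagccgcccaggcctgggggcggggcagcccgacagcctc
Dll1, chr17:15376933-15377182, minus strand: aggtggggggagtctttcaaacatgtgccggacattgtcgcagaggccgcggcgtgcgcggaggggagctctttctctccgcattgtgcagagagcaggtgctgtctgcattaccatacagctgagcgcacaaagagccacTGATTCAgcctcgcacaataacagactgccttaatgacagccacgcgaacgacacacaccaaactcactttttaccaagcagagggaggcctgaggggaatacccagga
All 10 genes matched the RefSeq table, with 11 stretches in all. On either strand, the RBPJ core motif TGGGAA occurred in 0 of the 11 and in 21.6% of all 32851 stretches of that length, and the CArG box, bound by serum response factor, in 0 of the 11 and in 1.47% of all. The AP-1 motif occurred in 1 of the 11, the Dll1 stretch above, 109 bases before the start, and in 6.75% of all. The GC content of the 11 stretches ran from 52% in Dll3 to 87.2% in Jag2, against a median of 52.4% over all stretches. The number of CpG dinucleotides ran from 4 in Notch4 to 54 in Jag2, against a median of 6. Notch2 held 34 and Notch3 17.

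Obstruction of wild-type kidneys raised the receptors Notch2 and Notch3 and lowered the ligand Dll1. These 3 of the 10 genes were called, 2 higher and 1 lower, where 25.9% of all genes tested were called, 14.1% higher and 11.7% lower, so the share of the members was near the background. The median change of the 10 was 0.17, against 0.04 over all genes. The arrays of both groups did not overlap for 5 of the 10, against 64.6% of all genes. With slide as a random block Notch2 remained called (adjusted p = 0.0347), while Notch3 (adjusted p = 0.0719) and Dll1 (adjusted p = 0.0542) did not.

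**Figure D1:**
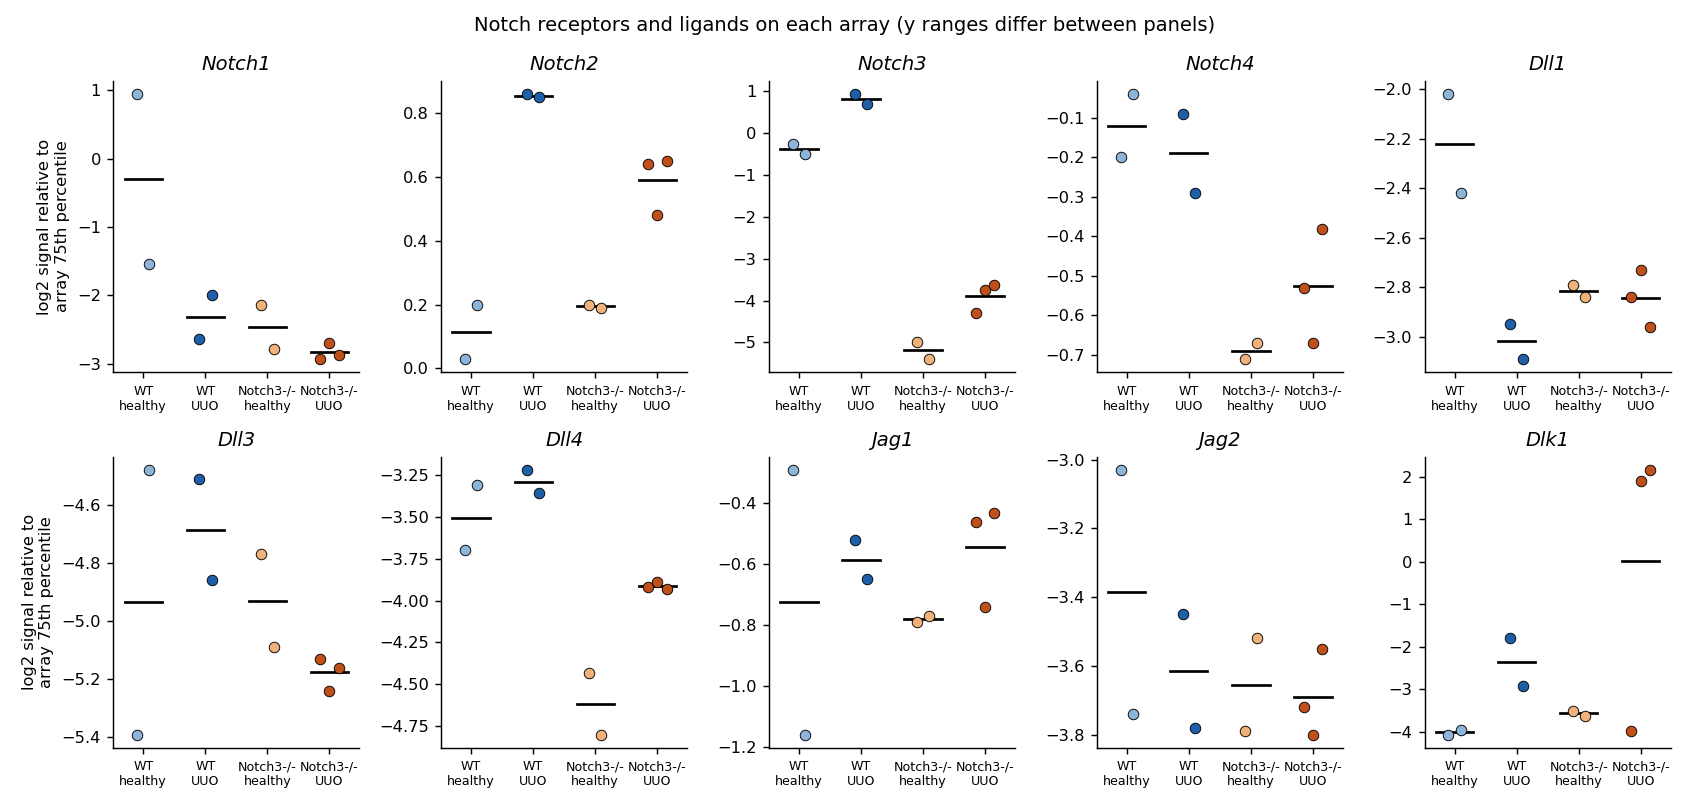
Log2 signal of the 10 genes relative to the array's 75th percentile (y axis, with a range of its own in each panel) on the 9 arrays, in 4 groups of healthy and UUO kidneys of wild-type (WT) and Notch3-/- mice. Points are arrays and bars are group means. Notch3 lies between -0.50 and 0.92 on the wild-type arrays and between -5.39 and -3.63 on the Notch3-/- arrays.

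Notch3, the deleted receptor, checks the genotype labels. Its log2 signal was -0.26 and -0.50 in the wild-type healthy arrays, 0.92 and 0.68 in wild-type UUO, -4.98 and -5.39 in Notch3-/- healthy, and -4.30, -3.74 and -3.63 in Notch3-/- UUO. The 5 Notch3-/- arrays all lay far below the 4 wild-type arrays. Notch3-/- kidneys were lower by -4.81 ± 0.27 when healthy (adjusted p = 0.00311) and by -4.69 ± 0.24 after obstruction (adjusted p = 0.00401), which is 3.57% and 3.89% of the wild-type level. The files used here do not say where in the transcript the probe or the deletion lies. It was the only member called in either genotype comparison, where 0.511% of all genes were called between healthy kidneys (0.272% lower in Notch3-/-) and 0.285% between obstructed ones (0.205% lower). Leaving out wild-type UUO replicate 2 took the adjusted p of the obstructed comparison to 0.0732, and leaving out Notch3-/- healthy replicate 2 took that of the healthy one to 0.0517. Without the 2 arrays with high Xist the obstructed difference was -5.10 (adjusted p = 0.0577). The differences were -4.28 and -3.75 in the authors' value table, and -3.88 and -2.95 with normexp background correction, which adds an offset to every signal.

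In wild-type kidneys obstruction raised Notch3 by 1.17 ± 0.27 (2.26-fold, adjusted p = 0.0224), and the UUO arrays lay above the healthy ones. The residual signal in Notch3-/- kidneys moved the same way, by 1.30 ± 0.24 (adjusted p = 0.0148), with the 3 UUO arrays above the 2 healthy ones. That residual signal was low. Its processed intensity was 19.76 and 20.71 in the healthy and 56.27 to 98.72 in the UUO arrays, against 816.6 to 2533 in wild-type arrays. With normexp correction the change in Notch3-/- kidneys was 0.20 (adjusted p = 0.354), and without the 2 arrays with high Xist it was 0.88 (adjusted p = 0.217). The wild-type call was lost without either UUO replicate (adjusted p = 0.133 and 0.0694) or without healthy replicate 2 (adjusted p = 0.0784). The call in Notch3-/- kidneys was lost without UUO replicate 2 or 3 (adjusted p = 0.058 and 0.0545) or without healthy replicate 1 or 2 (adjusted p = 0.0526 and 0.0851). The difference between the responses of the genotypes was 0.12, with a 95% interval of -0.74 to 0.98, and had no settled direction. It was -0.19 with quantile normalization, -0.53 in the authors' value table and -0.93 with normexp correction, and was not called in any of them.

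The summed level of markers of the cells known to carry Notch3 moved in the same direction. All 9 pericyte and smooth muscle markers were well above background on every array, and they summed to 15 and 21.8 in wild-type healthy, 35 and 64.9 in wild-type UUO, 7.94 and 9.11 in Notch3-/- healthy and 28.1 to 30.8 in Notch3-/- UUO arrays, in units of the 75th percentile. Of the 9, 5 rose and 0 fell with obstruction in either genotype, and 0 were called between genotypes. Without the arrays with high Xist, which leaves 1 Notch3-/- UUO array, the median change of the 9 in Notch3-/- kidneys was 0.61, against 0.63 with them. Tagln and Acta2, contractile proteins of smooth muscle, made up 70.1% to 86.7% of the sum. Pdgfrb, the receptor of pericytes for PDGF-B, rose by 1.43 ± 0.32 in wild-type (adjusted p = 0.0211) and by 1.91 ± 0.29 in Notch3-/- kidneys (adjusted p = 0.0078). Myh11, the smooth muscle myosin, changed by -0.47 ± 0.48 and -0.28 ± 0.44 and was not called. In RNA of whole cortex, a changed number of cells of a type and a changed amount of RNA per cell cannot be told apart. The part of these cells in the Notch3 change was not tested.

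Notch2, a receptor with a known role in forming the proximal nephron, rose in both genotypes. It gave log2 signals of 0.03 and 0.20 in wild-type healthy, 0.86 and 0.85 in wild-type UUO, 0.20 and 0.19 in Notch3-/- healthy, and 0.64, 0.48 and 0.65 in Notch3-/- UUO arrays. The UUO arrays lay above the healthy arrays in both genotypes, wild-type UUO highest, and the healthy groups lay together. Obstruction raised Notch2 by 0.74 ± 0.13 in wild-type kidneys (1.67-fold, adjusted p = 0.0105) and by 0.39 ± 0.12 in Notch3-/- kidneys (1.31-fold, adjusted p = 0.0499). The difference between these responses was -0.35 ± 0.18, with a 95% interval of -0.77 to 0.06. Between obstructed kidneys Notch3-/- was lower by -0.27 ± 0.12 (adjusted p = 0.316), and between healthy ones the difference was 0.08 ± 0.13.

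Markers of leukocytes and tubules changed with obstruction, where 25.9% of all genes were called in wild-type and 27.2% in Notch3-/- kidneys. Of 7 tested macrophage and leukocyte markers, 4 rose in wild-type kidneys, and 4 rose and 1 fell in Notch3-/- kidneys. Adgre1, the macrophage protein F4/80, rose by 3.36 ± 0.28 and 3.48 ± 0.26. Itgam, another of the 7, was at 4.90 and 4.30 in Notch3-/- healthy and 3.84, 3.67 and 3.52 in Notch3-/- UUO arrays. The summed level of the 7 was 30.2 and 32.5 in wild-type healthy and 39.9 and 40.1 in wild-type UUO arrays. In Notch3-/- kidneys the sum showed no rise, at 40.2 and 30.4 in healthy and 29.2 to 37.9 in UUO arrays, although 4 of the 7 markers rose. Itgam and Csf1r were the brightest of the 7 on every array and weighed most in the sum, and Itgam was lower in the Notch3-/- UUO arrays. Of the 7 proximal tubule markers, 5 fell in wild-type and 7 in Notch3-/- kidneys. Without the arrays with high Xist, 1 Notch3-/- UUO array is left. The median changes in Notch3-/- kidneys were then 1.30 for leukocyte and -0.95 for tubule markers, against 1.56 and -1.85 with them. The part of these cells in the Notch2 change was not tested.

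The Notch2 call in Notch3-/- kidneys stood at the threshold. It was lost in 15 alternatives, for example at 0.44 without the 2 arrays with high Xist (adjusted p = 0.317) and at 0.39 within the slide that held arrays of both Notch3-/- groups (adjusted p = 0.213). The wild-type call was lost without UUO replicate 1 or 2 (adjusted p = 0.0767 and 0.0585). A second, dimmer Notch2 probe, well above background on 7 of 9 arrays, changed by 0.81 ± 0.40 (adjusted p = 0.177) in wild-type and 0.16 ± 0.36 (adjusted p = 0.772) in Notch3-/- kidneys, neither of them called.

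Notch1, the receptor best known from cell fate decisions in development and in T cells, had its widest spread among the wild-type healthy arrays. Its log2 signal was 0.94 and -1.55 there, -2.64 and -1.99 in wild-type UUO, -2.15 and -2.79 in Notch3-/- healthy, and -2.93, -2.70 and -2.87 in Notch3-/- UUO arrays. The 2 wild-type healthy arrays lay above the other 7, and replicate 1 lay far above replicate 2. The wild-type change with obstruction was -2.01 ± 0.73 (adjusted p = 0.0859), that in Notch3-/- kidneys -0.36 ± 0.67 (adjusted p = 0.72), and healthy Notch3-/- against healthy wild-type kidneys differed by -2.17 ± 0.73 (adjusted p = 0.204). None was called. Without wild-type healthy replicate 2, which leaves replicate 1 alone in its group and assumes that it varies like the other groups, the first became -3.25 (adjusted p = 0.00917) and the third -3.41 (adjusted p = 0.042). Without replicate 1, with replicate 2 alone, they became -0.76 (adjusted p = 0.175) and -0.92 (adjusted p = 0.248), so their size rested on replicate 1. The authors' value table called the first at -2.02 (adjusted p = 0.0468). A second Notch1 probe was not well above background on any array.

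Wild-type healthy replicates 1 and 2 also differed in markers of neighbouring tissue. The 7 fat markers summed to 108 in replicate 1 and 12.2 in replicate 2, and the 6 urothelium markers to 6.38 and 1.20. Cnn1, a contractile protein of smooth muscle, was at 0.88 and -2.22. The fat markers were also high, at 96.5, in Notch3-/- healthy replicate 2, whose Notch1 was -2.79. The part of these tissues in the Notch1 values was not tested.

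Notch4, a receptor of endothelium, did not change detectably with obstruction and was lower on every Notch3-/- array than on every wild-type array. Its log2 signal was -0.20 and -0.04 in wild-type healthy, -0.09 and -0.29 in wild-type UUO, -0.71 and -0.67 in Notch3-/- healthy, and -0.53, -0.67 and -0.38 in Notch3-/- UUO arrays. The difference between genotypes was -0.57 ± 0.15 in healthy kidneys (adjusted p = 0.141) and -0.34 ± 0.14 in obstructed ones (adjusted p = 0.282), so it failed the adjustment in both. The latter was -0.34 without the 2 arrays with high Xist as well (adjusted p = 0.479). Obstruction changed it by -0.07 ± 0.15 in wild-type (95% interval -0.43 to 0.29) and by 0.16 ± 0.14 in Notch3-/- kidneys (95% interval -0.17 to 0.49).

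Dll4, the Delta-like ligand of endothelium, had the same order of genotypes as Notch4. It was measured at -3.70 and -3.31 in wild-type healthy, -3.22 and -3.36 in wild-type UUO, -4.43 and -4.80 in Notch3-/- healthy, and -3.92, -3.89 and -3.93 in Notch3-/- UUO arrays. The 4 wild-type arrays were highest, the Notch3-/- healthy arrays lowest, and the Notch3-/- UUO arrays lay between them without overlap. The signal was low, with a processed intensity of 30.35 and 29.74 in Notch3-/- healthy arrays and 73.42 to 143.7 on the others. The Notch3-/- healthy arrays were also the dimmest, with 75th percentiles of 653.1 and 827.6 against 1004 to 1341. With normexp correction the healthy genotypes differed by -0.30 (adjusted p = 0.257). The healthy genotypes differed by -1.11 ± 0.19 (adjusted p = 0.0675), or 46.4% of the wild-type level, and the obstructed ones by -0.62 ± 0.17 (adjusted p = 0.166). Neither passed, and the latter was -0.63 without the 2 arrays with high Xist (adjusted p = 0.391).

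Obstruction raised Dll4 by 0.70 ± 0.17 in Notch3-/- kidneys (1.63-fold, adjusted p = 0.0273), while the wild-type change was 0.21 ± 0.19 (adjusted p = 0.437). The difference between these responses was 0.49 ± 0.25, with a 95% interval of -0.11 to 1.08, and was not called. The call depended on the processing. It was 0.00 with normexp correction (adjusted p = 0.999), 0.23 in the authors' value table (adjusted p = 0.285), 0.45 with quantile normalization (adjusted p = 0.0878) and 0.52 within the slide that held arrays of both Notch3-/- groups (adjusted p = 0.149). Without the 2 arrays with high Xist it stayed at 0.70 (adjusted p = 0.306). It was also lost without Notch3-/- UUO replicate 2 or 3 (adjusted p = 0.089 and 0.0866), Notch3-/- healthy replicate 1 or 2 (adjusted p = 0.0647 and 0.139) or either wild-type UUO replicate (adjusted p = 0.0505).

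Across all arrays, 3 of the 10 genes, Notch3, Notch4 and Dll4, were lower on all 5 Notch3-/- arrays than on all 4 wild-type arrays, and 0 were higher on all of them. Notch3 is the deleted gene, so its place among them was given by the genotype. Over all genes, 3.3% lay lower in this way and 7.18% did not overlap in either direction. The genotype differences of Notch4 and Dll4 were negative under all of the other scalings, at -0.17 to -0.55 for Notch4 and -0.30 to -0.97 for Dll4 with quantile normalization, normexp correction and the authors' value table. Between obstructed kidneys the arrays of both genotypes did not overlap for 6 of the 10 genes, against 43.6% of all genes, and between healthy ones for 6 of the 10, against 45.3%. Without Notch3 the count was 5 of 9 in each of these comparisons. The median difference of the 10 was -0.30 and -0.42, against 0 and 0.06 over all genes. Without Notch3 both medians were -0.27.

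All 8 endothelium markers were well above background on every array, and their summed level had the order of genotypes of Notch4 and Dll4. It was 16.5 and 18.8 in wild-type healthy and 15.7 and 14.4 in wild-type UUO arrays. On the Notch3-/- arrays it was lower, at 9.21 and 9.67 in healthy and 11.5 to 13.5 in obstructed kidneys. Plvap and Kdr were the brightest on every array and weighed most in the sum. The endothelial receptor tyrosine kinase Tek, for example, was at -1.88 and -2.12 in wild-type healthy and -3.46 and -3.54 in Notch3-/- healthy arrays. Kdr and Erg did not separate the healthy genotypes. Kdr was at 1.83 and 2.76 in wild-type and 2.33 and 1.97 in Notch3-/- healthy arrays. Erg was at -3.25 and -4.16 in wild-type and -3.63 and -4.09 in Notch3-/- healthy arrays. The median difference of the 8 markers between genotypes was -1.15 in healthy and -0.37 in obstructed kidneys, and 0 of 8 were called in either. The part of endothelial content in the Notch4 and Dll4 values was not tested.

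**Figure D2:**
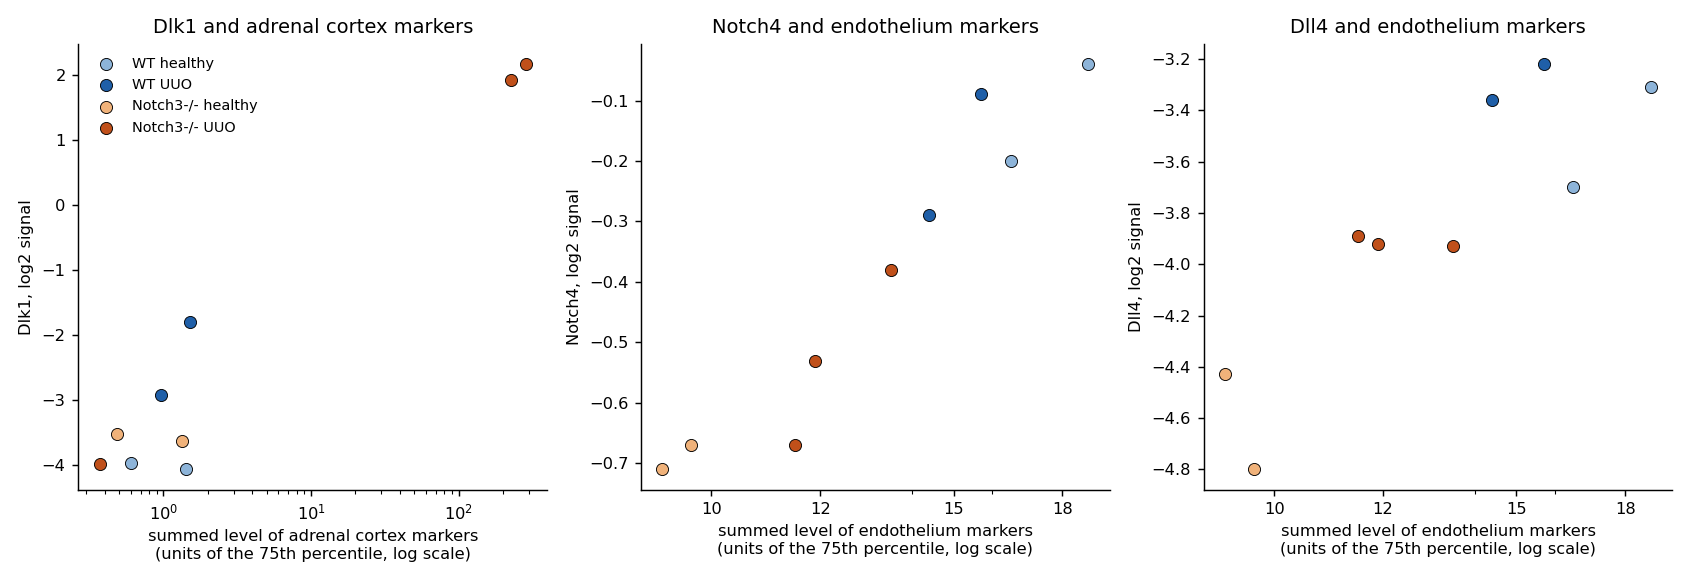
Log2 signal of Dlk1, Notch4 and Dll4 (y axes) against the summed level of a marker list in units of the array's 75th percentile (x axes, log scale), 1 point per array, coloured by group. Dlk1 and the adrenal cortex markers are far higher on 2 Notch3-/- UUO arrays than on the other 7, and the Notch3-/- arrays lie to the lower left of the wild-type arrays for Notch4 and Dll4 against the endothelium markers.

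Dll1, a Delta-like ligand that activates Notch receptors on neighbouring cells, fell with obstruction in wild-type kidneys and not detectably in Notch3-/- kidneys. Its log2 signal was -2.02 and -2.42 in wild-type healthy, -2.95 and -3.09 in wild-type UUO, -2.79 and -2.84 in Notch3-/- healthy, and -2.84, -2.73 and -2.96 in Notch3-/- UUO arrays. The wild-type healthy arrays stood above the other 7, which lay close together. The fall was -0.80 ± 0.17 in wild-type kidneys (57.6% of the healthy level, adjusted p = 0.0188), and the change in Notch3-/- kidneys was -0.03 ± 0.16 (adjusted p = 0.914). The difference between the responses was 0.77 ± 0.23, with a 95% interval of 0.22 to 1.32, and failed the adjustment over all genes (adjusted p = 0.556). No gene was called in that comparison (0 of 23889, or 0%). In the same limma fit 1704 had an unadjusted p under 0.05, and many such values arise without any difference. Healthy Notch3-/- kidneys differed from healthy wild-type kidneys by -0.60 ± 0.17 (adjusted p = 0.161). The call of the fall was lost without wild-type UUO replicate 1 or 2 (adjusted p = 0.0863 and 0.0933).

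The Dll1 probe was present as 10 spots on each array, which shows its technical error. The SD over the spots of an array was 0.04 to 0.11, with 1 outlier spot of Notch3-/- healthy replicate 2 left out. The lowest spot of the wild-type healthy arrays was -2.52, and the highest spot of the other 7 arrays was -2.66, so no spot of these 2 sets of arrays overlapped. Spots share the labelled RNA of their array and do not stand for replicates.

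**Figure D3:**
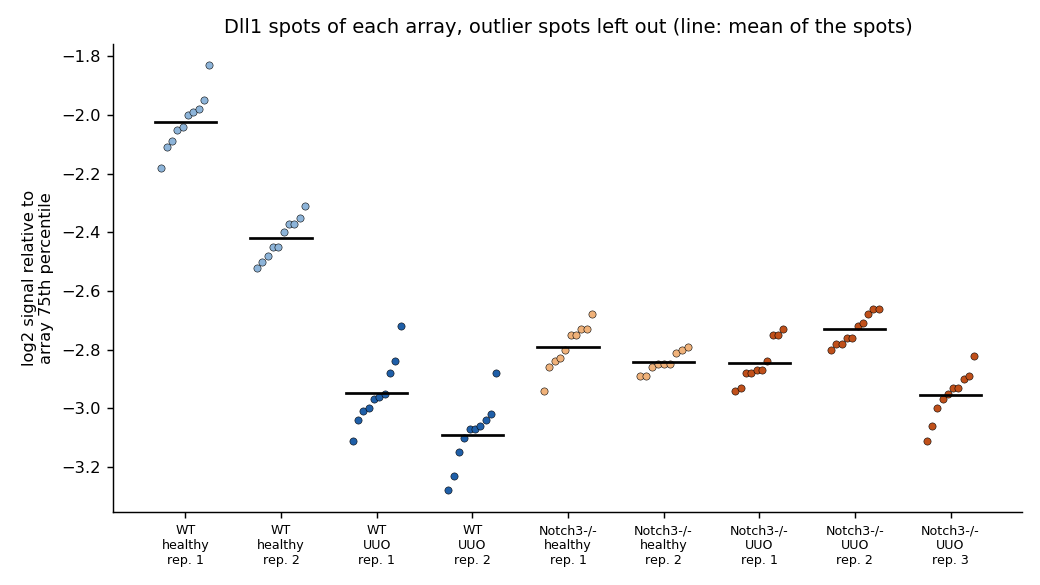
Log2 signal of each Dll1 spot relative to the array's 75th percentile (y axis) on the 9 arrays (x axis), without spots marked as outliers. Lines are means over the spots of an array. The spots of both wild-type healthy arrays, from -2.52 upward, lie above those of the other 7 arrays, which reach at most -2.66.

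The Jagged ligands and Dll3 were not called in any of the 5 comparisons. Jag1, an activating ligand of vessels and epithelium, was at -0.29 and -1.16 in wild-type healthy, -0.52 and -0.65 in wild-type UUO, -0.79 and -0.77 in Notch3-/- healthy, and -0.46, -0.74 and -0.43 in Notch3-/- UUO arrays. The wild-type healthy replicates bracketed all other arrays. Its change with obstruction was 0.14 ± 0.28 in wild-type (95% interval -0.52 to 0.79) and 0.24 ± 0.25 in Notch3-/- kidneys (95% interval -0.36 to 0.84), which leaves room for changes of either sign. Jag2, the other Jagged ligand, ranged from -3.80 to -3.03 over the 9 arrays, with changes of -0.23 ± 0.26 and -0.03 ± 0.24. Dll3, a ligand that does not activate receptors on neighbouring cells, ranged from -5.39 to -4.48, both of these extremes in wild-type healthy arrays. It changed by 0.25 ± 0.30 and -0.24 ± 0.27, with the second called at -0.42 only under normexp correction (adjusted p = 0.0475). A second Dll3 probe was not well above background on any array.

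Dlk1 had the largest spread of the 10 genes, most of it among the 3 Notch3-/- UUO arrays. Its log2 signal was -4.07 and -3.97 in wild-type healthy, -1.80 and -2.93 in wild-type UUO, -3.52 and -3.63 in Notch3-/- healthy, and -3.99, 1.91 and 2.16 in Notch3-/- UUO arrays. Notch3-/- UUO replicates 2 and 3 stood far above all others, while replicate 1 lay among the healthy arrays. The second Dlk1 probe gave the same picture, at -1.0 and -0.8 on those 2 arrays and -7.92 to -4.91 on the others, and was well above background on them and on wild-type UUO replicate 1. The group means gave a change of 3.60 ± 1.75 in Notch3-/- (adjusted p = 0.168) and 1.65 ± 1.91 in wild-type kidneys (adjusted p = 0.566), neither called.

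The adrenal cortex markers were high on the same 2 arrays. All 9, among them the steroid-making enzymes Cyp11b1 and Cyp21a1, were well above background there, and 4 to 7 of the 9 elsewhere. Their summed level was 227 and 285 on Notch3-/- UUO replicates 2 and 3 and 0.370 to 1.51 on the other 7 arrays. Cyp11b1 was at 4.69 and 5.15 against -8.63 to -4.13. On wild-type UUO replicate 1, the next highest in Dlk1, Hsd3b1, another steroid-making enzyme, was at -2.34 and Cyp11b1 at -4.13, above their levels on the 6 remaining arrays. Cyp11b2, Nr5a1 and Mrap were not above all of those arrays. The summed level there was 1.51, against 1.42 in wild-type healthy replicate 1. Wild-type UUO replicate 2 followed in Dlk1 at -2.93, with Hsd3b1 at -8.01 and Cyp11b1 at -8.02.

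Without Notch3-/- UUO replicates 2 and 3 the Dlk1 change in Notch3-/- kidneys was -0.42 (adjusted p = 0.741), and the difference between obstructed genotypes went from 2.39 ± 1.75 (adjusted p = 0.534) to -1.63 (adjusted p = 0.27). Without replicate 1 the same values were 5.61 (adjusted p = 0.000616) and 4.40 (adjusted p = 0.00837), so the direction and the call both rested on which of the 3 arrays were used. The wild-type change stayed at 1.65 and was called without the 2 arrays with high Xist (adjusted p = 0.0418). The part of adrenal tissue in the Dlk1 values was not tested.

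**Figure D4:**
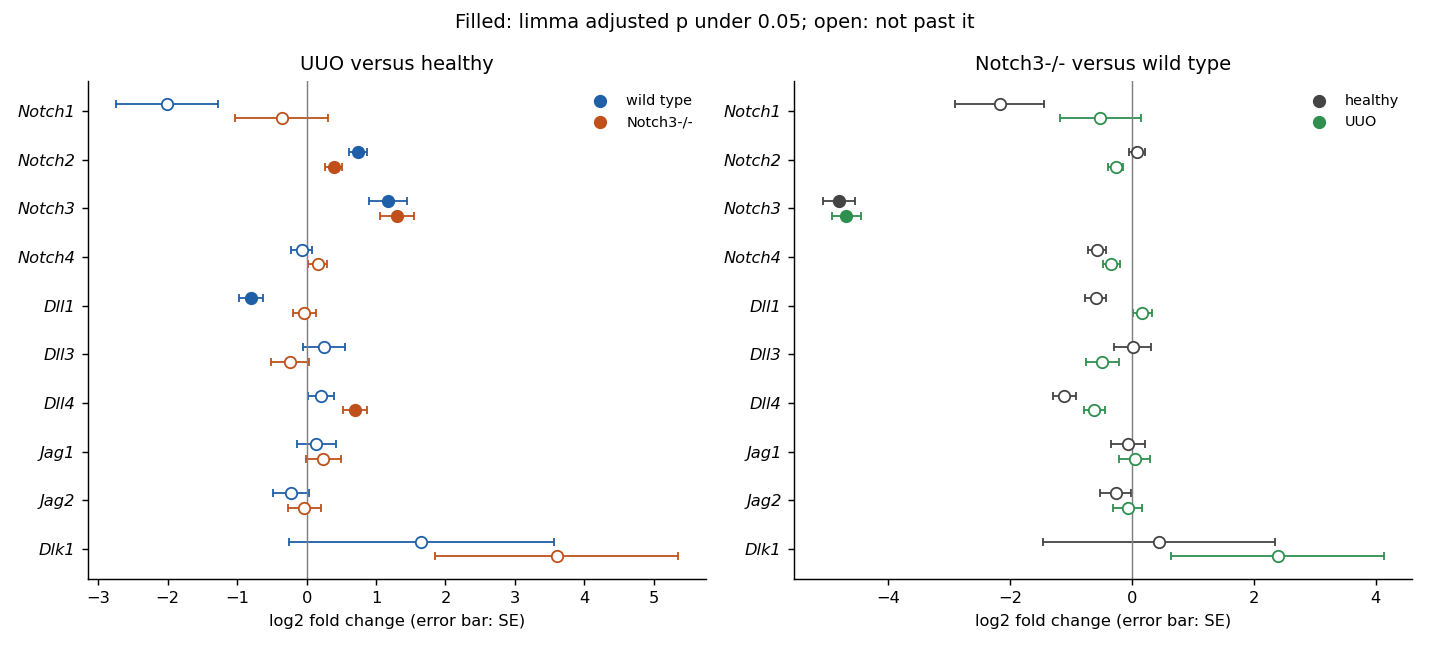
Log2 fold changes (x axes) of the 10 genes, for UUO against healthy in wild-type and Notch3-/- kidneys on the left and for Notch3-/- against wild type in healthy and UUO kidneys on the right. Points are limma estimates, bars are SEs, and filled points have an adjusted p under 0.05, which holds for Notch2, Notch3 and Dll1 in wild-type UUO, Notch2, Notch3 and Dll4 in Notch3-/- UUO, and Notch3 between genotypes.

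In Notch3-/- kidneys 3 of the 10 genes were called higher with obstruction, Notch2, Dll4 and the residual signal of the deleted Notch3. Of all genes 27.2% were called, 13.3% as higher, so the share of members called, 30%, was near that of calls in either direction. Each of these 3 calls was lost in alternatives given above. The median change was 0.20, against -0.07 over all genes, and the arrays of both groups did not overlap for 6 of the 10, against 61.3%. Without the 2 arrays with high Xist, where 1 array is left in the group, 0 members and 401 of all genes were called, against 6493 with them. Within the slide that held arrays of both Notch3-/- groups, 0 members and 787 of all genes were called. In the comparison of the responses 0 of the 10 genes were called, and the median difference was 0.21, against -0.07 over all genes.

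Of 52 other genes of the pathway, 47 were tested. In wild-type kidneys 9 rose and 4 fell with obstruction, with a median change of 0.24, and in Notch3-/- kidneys 13 rose and 4 fell, with a median of 0.19. These are 27.7% and 36.2% of the 47, against 25.9% and 27.2% of all genes, so the wild-type share was near the background. The counts by function below rest on few genes each, and the same shares of all genes apply to them. None of the 47 was called between genotypes or between the responses, where the medians were 0.07 for obstructed kidneys, 0.04 for healthy ones and -0.02 for the responses. By function, the most changed were 6 tested atypical ligands and other extracellular proteins, of which 3 rose and 1 fell in wild-type and 5 rose in Notch3-/- kidneys. The 1 that fell was Wif1, listed here although it is known as a Wnt inhibitor. Of 12 endocytic regulators, 5 rose in wild-type and 4 in Notch3-/- kidneys. Of 5 glycosyltransferases that modify the receptors, 1 fell in wild-type, and 2 rose and 1 fell in Notch3-/- kidneys. Of 8 processing proteases and their subunits, 1 fell in wild-type and 2 in Notch3-/- kidneys. Of 9 proteins of the nuclear complex, 1 rose and 1 fell in either genotype.

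Among the extracellular proteins, Thbs2, a matricellular thrombospondin, rose by 3.12 ± 0.32 in wild-type (adjusted p = 0.00193) and 3.43 ± 0.29 in Notch3-/- kidneys (adjusted p = 0.000964). Mfap2, a microfibril protein, rose by 2.98 ± 0.35 and 2.78 ± 0.32. These matrix proteins have roles outside the Notch pathway. Cntn1, a cell adhesion protein, rose by 1.31 ± 0.21 in Notch3-/- kidneys. Among the endocytic regulators, the deltex family members Dtx3l and Dtx4 rose in both genotypes, by 1.35 ± 0.19 and 2.28 ± 0.32 in wild-type and by 1.55 ± 0.17 and 1.47 ± 0.30 in Notch3-/- kidneys. Numbl, related to the Notch inhibitor Numb, rose by 2.12 ± 0.33 and 1.95 ± 0.30, and Neurl1a, a ubiquitin ligase acting on ligands, by 2.13 ± 0.44 and 2.04 ± 0.40.

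Without the arrays with high Xist 1 array is left in the Notch3-/- UUO group, where calls over all genes also fell, so only sizes are given. The median change of the 47 genes in Notch3-/- kidneys was then 0.11, against 0.19 with them, and Thbs2 was at 3.03. Mfap2 was then at 2.22, Cntn1 at 1.5, Dtx3l at 1.45, Dtx4 at 0.99, Numbl at 1.34, Neurl1a at 1.15, Aph1a at -0.54, Rfng at -0.56 and Kat2b at -0.39, all with the sign they had before.

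The 4 genes that fell in wild-type kidneys were Aph1a, a subunit of gamma-secretase, by -0.91 ± 0.16, Rfng, a fringe glycosyltransferase, by -1.11 ± 0.19, Kat2b, an acetyltransferase of the nuclear complex, by -1.09 ± 0.21, and Wif1, a secreted Wnt inhibitor, by -0.93 ± 0.26. In Notch3-/- kidneys Aph1a, Rfng and Kat2b also fell, by -0.68 ± 0.14, -0.85 ± 0.18 and -0.75 ± 0.19, and Wif1 changed by 0.13 ± 0.23 (adjusted p = 0.721). Lfng, another fringe enzyme, rose by 2.01 ± 0.30 in Notch3-/- kidneys (adjusted p = 0.00743) and changed by 0.36 ± 0.33 in wild-type ones (adjusted p = 0.47). The difference between these responses was 1.65 ± 0.45 and was not called (adjusted p = 0.52). Without the arrays with high Xist the first was 1.86 (adjusted p = 0.158) and the last 1.5. Lfng was at -4.88 and -4.02 in Notch3-/- healthy arrays and between -3.22 and -2.25 on all others. Those healthy arrays were the dimmest, with 75th percentiles of 653.1 and 827.6 against 1004 to 1341, and no value with normexp correction is given for Lfng.

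Of 7 target genes of the pathway, 0 were called in wild-type kidneys and 1, Heyl, in Notch3-/- kidneys. Heyl, a transcriptional repressor known from smooth muscle and pericytes, was at -1.97 and -2.60 in wild-type healthy, -0.78 and -1.25 in wild-type UUO, -3.73 and -3.63 in Notch3-/- healthy, and -2.50, -1.67 and -1.33 in Notch3-/- UUO arrays. It rose by 1.84 ± 0.37 in Notch3-/- kidneys (adjusted p = 0.0177) and changed by 1.27 ± 0.41 in wild-type kidneys (adjusted p = 0.0604). Without the arrays with high Xist, which leaves 1 Notch3-/- UUO array, the former was 1.17. Between genotypes it differed by -1.39 ± 0.41 in healthy (adjusted p = 0.166) and -0.82 ± 0.37 in obstructed kidneys (adjusted p = 0.327). Hes1, a general target, changed by 0.51 ± 0.40 and 0.02 ± 0.37 with obstruction, and Hey1, a target in vessels, by -0.77 ± 0.25 (adjusted p = 0.0621) and -0.22 ± 0.23, none of them called.

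The genes whose log2 signals followed each member most closely over the 9 arrays were also listed, as a description, since the arrays share groups, slides and scan campaigns. For Dlk1 they were Slc24a2, Cyp11b1 and Pcsk5, with Pearson correlations of 0.993, 0.992 and 0.991. For Notch2 they were Mmp9, Fcrls and Arg1, at 0.987, 0.986 and 0.985. For Notch3 they were Ifna1, Nhlh1 and Fat2, at 0.983, 0.979 and 0.969, and for Notch1 Ermn, Pnma2 and Selenoi, at 0.977, 0.975 and 0.971. Notch4 was followed by Gm14015, Crabp2 and Mafk, at 0.968, 0.962 and 0.945. For Dll4 they were Rasgef1c, Exoc3l and Zfp366, at 0.957, 0.954 and 0.953, and for Dll1 Yod1, Ranbp6 and Ikzf5, at 0.950, 0.949 and 0.949. The closest to Dll3, Jag1 and Jag2 were Vmn1r58 at 0.965, AI987944 at 0.949 and Trmt10a at 0.943.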

How the data were processed

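The arrays were Agilent single-colour arrays hybridised with Cy3-labelled RNA, per the labels. The spots were extracted with Agilent Feature Extraction 10.7.3.1 per the file headers, and version 10.5 is named in the submitters' processing notes. The deposited processed signal is an intensity after background subtraction, not normalized between arrays per the file headers. The authors' value table holds log2 values; how they were normalized was not stated in any source used here. Its column medians were 7.02 to 7.05, and it correlated with the values below at 0.971 to 0.986 per array.

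Spots marked as outliers were dropped (117 to 204 per array), log2 processed signals were set relative to the array's 75th percentile, and replicate spots were averaged by probe. A probe was kept if 2 or more of 9 arrays had it well above background (29348 of 39429), and the brightest stood for its gene. Accessions were looked up in RefSeq's gene table for GRCm38.p6, and 27234 probes received a symbol. The array grid was built on an earlier assembly, so no probe positions are given. Group means were fitted to all 9 arrays in limma 3.58.1 (R 4.3.3, 5 residual degrees of freedom), with Benjamini-Hochberg adjustment at 0.05 over 23889 genes and unnamed transcripts. Intervals are at 95%. The number of arrays limits the precision. The steps were also run on simulated data with independent noise on each array. That simulation left out the slides, scan times and mixed sexes of these arrays, so it does not bear on the calls given here.

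The members and gene lists were chosen with earlier results of these data known. All 10 members are described in every comparison. Other pathway genes are named where they were among the 8 with the smallest adjusted p, with Hes1, Hey1 and Heyl always named, marker genes where their values stand beside a result, and for likeness the 3 genes with the highest correlation. Wif1, and values of named pathway genes in the other genotype or between the responses, were added after they were seen. So were the median changes of the lists without the arrays with high Xist. Alternatives covered scaling, background, filters, probe choice, moderation, slide and replicate blocks, and each array left out.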

Additional observations from a re-analysis of the deposited data

How the results depend on the processing

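Over all genes, obstruction in wild-type kidneys called 6179, with 2405 under slide as a random block, 2584 under a replicate block and 3498 in a fit of only the groups compared, and 1285 to 7449 with an array left out. In Notch3-/- kidneys it called 6493, with 923 under the replicate block, 3816 with only the groups compared, 787 within the slide that held both groups, 401 without the arrays with high Xist, and 1226 to 8642 with an array left out. Between obstructed kidneys 68 were called, with 140 under quantile normalization, 213 under normexp, 297 in the authors' value table, 133 when every array of a group had to be well above background, 2 with the slide block, 602 with only the groups compared, 0 under the replicate block and without the arrays with high Xist, and 1 to 632 with an array left out. Between healthy kidneys 122 were called, with 63 in the authors' value table, 78 without a filter on dim probes, 12 with the slide block, 1 under the replicate block, 0 with only the groups compared, 236 with trended and robust moderation, 3 without the arrays with high Xist, and 1 to 217 with an array left out. The difference of responses called 0, and 0 to 53 with an array left out.

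Members called in wild-type obstruction went from 3 to 1 with the slide block, 0 under the replicate block and 1 with only the groups compared (0 to 4 with an array left out). In Notch3-/- kidneys they went from 3 to 0 under the replicate block, within the slide and without the arrays with high Xist (0 to 3). Between obstructed kidneys they went from 1 to 0 under the replicate block and without the arrays with high Xist (0 to 2), and between healthy ones from 1 to 0 under the replicate block and with only the groups compared (0 to 2). For the responses the count was 0 with each array left out. The called Dll4 change in Notch3-/- obstruction vanished under normexp, at 0.00. Among values not called, several turned in sign, such as Dlk1 without the arrays with high Xist, from 3.60 to -0.42 in Notch3-/- obstruction and from 2.39 to -1.63 between obstructed kidneys, and the Notch3 difference of responses, from 0.12 to -0.93 under normexp.

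The deviations of same-numbered arrays from their group means correlated at 0.0702 to 0.158 within a genotype and at -0.21 to 0.0366 across genotypes. In a group of 2 arrays the deviations mirror each other, so these correlations cannot decide whether the numbers are pairs. The labels name no animals, and the main fit did not take the numbers as pairs. A crossed replicate block, chosen after seeing the data, called 2900 genes in Notch3-/- obstruction, 0 between obstructed and 37 between healthy kidneys, with 0 members in Notch3-/- obstruction and 0 between obstructed kidneys. The share of rises among calls was 48.8% in Notch3-/- obstruction against 28.1% under normexp, where the median of all genes moved from -0.07 to -0.23. Between obstructed kidneys it was 27.9% against 50.7% under quantile normalization, 47.4% under normexp and 52.5% in the authors' value table, and between healthy kidneys 46.7% against 59.6% under normexp, where that median moved from 0.06 to 0.18. Normexp also moved the calls of Notch3 and Dll3 in Notch3-/- obstruction. The cause of these changes was not tested.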
